A study of Mus musculus with 6 samples.

Results

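The genes described here build and run motile cilia, and they were read in mouse epididymal white fat from AFO and control mice. The list names 37 genes, and each was taken from the platform's gene symbol at whatever level it had, using the probe set with the highest mean over the 6 arrays. By that rule 32 genes were read, of 18193 genes with a probe set of their own. Cfap44, Drc7 and Mcidas had no such probe set and were not analysed here. Dnai1 and Dnai2, intermediate chains of the outer dynein arm, stood on the platform as Dnaic1 and Dnaic2, so they fall outside the rule and are given separately.

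A motile cilium is a microtubule axoneme anchored in the cell surface that beats. Dynein arms bound to its outer doublets pull on neighbouring doublets, and radial spokes, the central pair and the dynein regulatory complex set the stroke. Multiciliated cells line airways, brain ventricles, the oviduct and, in males, the efferent ducts that join testis and epididymis, and sperm tails share much of the same machinery. Foxj1 and the Rfx factors turn on the genes of the axoneme. Fat cells are not known as multiciliated cells, although fat cell precursors carry a primary cilium, which does not beat.

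The AFO mice were Adiponectin-cre FTO flox/flox and the control mice were FTO flox/flox, so both genotypes carried the floxed Fto allele. All were male C57BL/6 mice aged 16 weeks on a chow diet, and the fat came from the epididymal pad of animals with free access to food. The adiponectin promoter is active in fat cells. Each genotype had 3 arrays, numbered 1 to 3, and each array measured its own RNA pool. How many mice made a pool is not given in the sources used here. Values are log2 levels after RMA, in which a difference of 1 is a doubling of signal. The number of arrays limits the precision, and fewer cells of a type cannot be told apart from less RNA per cell in such bulk tissue.

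The arrays numbered 2 stood apart in both genotypes over all genes. Along the leading axis of a principal component analysis (63.6% of the variance), AFO 2 and control 2 lay at 60.8 and 39.6, and the other 4 arrays between -29.8 and -20.9. Mean mesothelial marker levels were 5.02 in AFO 2 and 5.53 in control 2, against 8.31 to 8.46 elsewhere, and mean B cell marker levels were 8.12 in AFO 2 and 7.55 in control 2, against 4.58 to 5.19 elsewhere. Fabp4 and Adipoq, the fat cell markers of highest mean, stood at 13.14 or above on every array. Over the 8 fat cell markers read, mean levels were 11.83, 11.27 and 11.32 in AFO fat, against 11.78, 11.70 and 11.54 in control fat. AFO 2 and AFO 3 thus lay below every control array. On 6 arrays 0 of these 8 had a difference above 0, beside 47.3% of all genes. Fto itself read 6.13, 5.45 and 5.95 in AFO fat, against 6.11, 6.20 and 5.59 in control fat, a difference of -0.12 (SE 0.25). A second, dim Fto probe set differed by -0.006. With the deleted exon not stated in the labels, these probe sets do not check the genotype. Because of the number 2 arrays, results are given with all 6 arrays and with that pair left out.

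All 32 motile cilia genes had a higher mean in AFO than in control fat, and none passed the test on 6 arrays. A filter at the 40th percentile of probe set means (4.88) would keep 17 of the 32, against 73.9% of all genes, and it was not applied because members are taken at any level. The median difference was 0.55 log2 units (range 0.12 to 2.27), beside a median of -0.01 over all 18193 genes, of which 47.3% were above 0. With limma and Benjamini-Hochberg adjustment over all genes, 0 of 32 members were called at an adjusted p of 0.05, and 0% of all genes were called higher or lower. At an unadjusted p of 0.05, limma gave 10 of 32 members as higher and 0 as lower, beside 1.06% of all genes higher and 0.242% lower. The 3 AFO values lay above all 3 control values in 7 members, against 2.26% of all genes, and in 0 members did they lie below, against 1.75% of all genes. Those 7 were Rfx3, Dnah5, Dnah11, Spag6, Spag16, Spag17 and Ak7. Spag6 and Spag17 were dim, with means at percentiles 0.37 and 5.67 of all genes. With array number as a block, limma again called 0 of 32 members, beside 0.011% of all genes higher and 0% lower.

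The higher means came from 2 of the 3 AFO arrays. The highest of the 6 values belonged to AFO 1 in 19 members and to AFO 3 in 13, and to no other array, whereas over all genes AFO 1 was highest in 15.2% and AFO 3 in 19.7%. AFO 2 lay within the range of the control arrays in 15 members, below it in 10 and above it in 7. Between arrays of equal number the median difference was 1.00 for number 1, -0.05 for number 2 and 0.87 for number 3. The number is the labels' own, each array being a separate RNA pool, and nothing in the labels says that equal numbers share mice or handling. AFO was above control in 31, 14 and 32 members for numbers 1, 2 and 3, beside 50.9%, 44.7% and 50.2% of all genes. AFO exceeded control by at least 1 log2 unit in 16 members for number 1, in 0 for number 2 and in 12 for number 3, beside 1.77%, 1% and 1.32% of all genes. No member was lower by as much at any number, beside 0.132%, 0.247% and 0.434% of all genes.

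**Figure D1:**
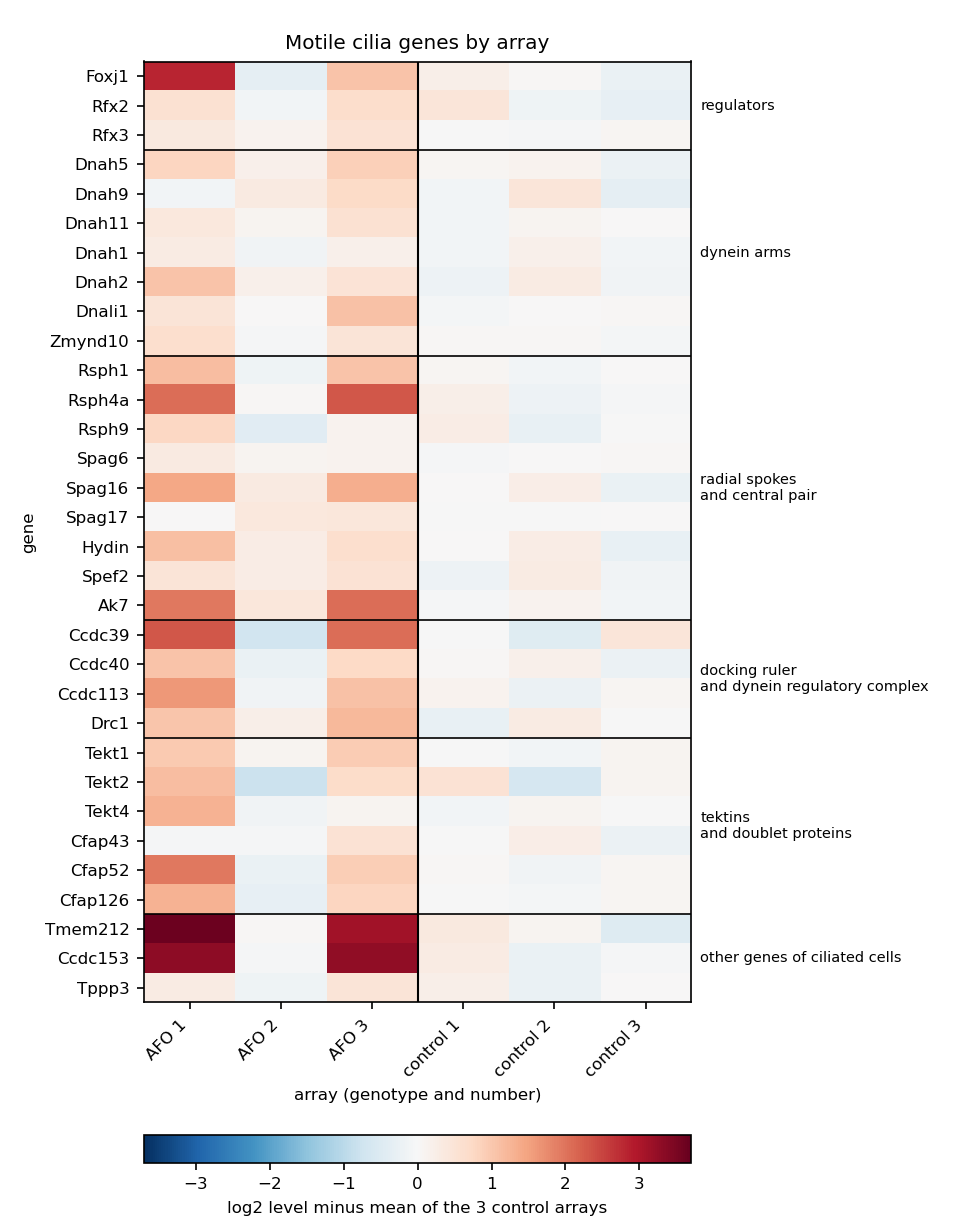
Each row is a motile cilia gene, each column an array, and colour is the log2 level minus the mean of the 3 control arrays; horizontal lines part the groups of genes by role. AFO 1 and AFO 3 hold the highest value in all 32 rows, in 19 and 13 rows each, and AFO 2 lies within the control range in 15.

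**Figure D2:**
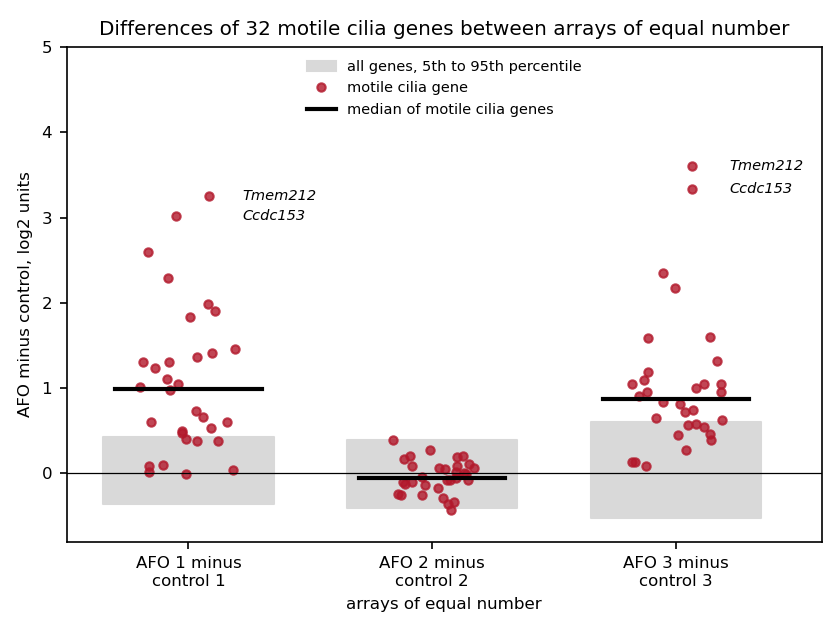
Points are the differences of the 32 genes between the AFO and control arrays of equal number, in log2 units on the vertical axis, black lines are their medians and grey bands run from the 5th to the 95th percentile of all genes. The medians are 1.00, -0.05 and 0.87, with 24, 0 and 22 genes above the band for numbers 1, 2 and 3.

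With both number 2 arrays left out, 2 AFO arrays were set against 2 control arrays. AFO 2 is also the AFO array on which the members were not high, so these calls are not independent of the pattern just described. All 32 members were again higher in AFO fat, with a median of 0.91 beside -0.0027 over all genes. These values rest on the probe set of highest mean. The 20 other probe sets that 13 of the members have gave a median of 0.04, with 13 of 20 above 0 and 4 at 0.5 or more, namely those of Dnali1 (1.64), Cfap43 (1.31), Cfap52 (1.10) and Dnah9 (0.62). The limma test called 9 of 32 members as higher and 0 as lower, beside 0.874% and 0.0165% of all genes. At an unadjusted p of 0.05, 23 were higher and 0 lower, beside 3.87% and 1.29% of all genes. The 9 were Tmem212, Ccdc153, Ak7, Rsph4a, Ccdc39, Spag16, Drc1, Ccdc113 and Rsph1. In 30 members both AFO values lay above both control values, against 15.9% of all genes, and Rsph9 and Cfap43 were the exceptions. In 0 members did both lie below, against 13.9% of all genes. With array number as a block as well, 17 of 32 members were called higher and 0 lower, beside 1.65% and 0.148% of all genes. With so few arrays, the standard errors of both fits without the number 2 arrays rest mainly on variance that limma borrows from all genes. Their calls therefore say little about how well the arrays of a genotype agree. Omitting AFO 2 alone gave 6 of 32 higher and 0 lower, beside 0.423% and 0.0055% of all genes.

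**Figure D3:**
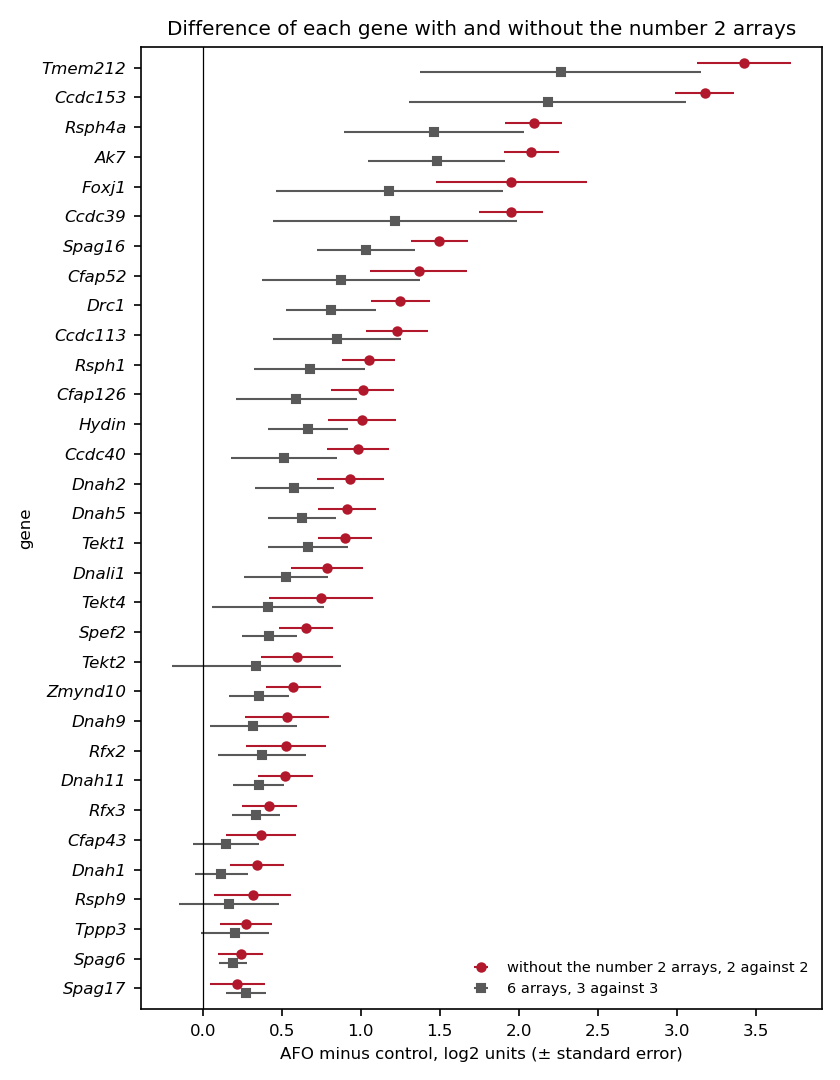
Horizontal positions are the AFO minus control differences in log2 units with their standard errors, for all 6 arrays (grey squares) and without the number 2 arrays (red circles), one row for each gene. Tmem212 and Ccdc153 lead at 3.43 and 3.18 without the number 2 arrays, and standard errors shrink there for the genes with the largest differences.

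The largest differences belonged to a pair of genes known as markers of ciliated cells. Tmem212, a membrane protein gene on chromosome 3 (Entrez gene 208613), read 7.99, 4.42 and 7.48 in AFO arrays 1, 2 and 3, against 4.74, 4.48 and 3.88 in control arrays 1, 2 and 3. AFO 1 and AFO 3 stood high, and AFO 2 lay among the controls. Tmem212 averaged 6.63 ± 1.93 in AFO fat and 4.36 ± 0.44 in control fat (SD over 3 arrays each), 2.27 higher in AFO (SE 0.89, 95% interval 0.15 to 4.38, limma adjusted p 1). Without the number 2 arrays the difference was 3.43 (SE 0.30, limma adjusted p 0.00148), which is 10.8-fold on the linear scale. Ccdc153 (Entrez gene 270150), which encodes a coiled-coil protein, read 7.36, 4.0 and 7.34 in the AFO arrays, against 4.34, 3.80 and 4.0 in the control arrays. Again only AFO 2 overlapped the controls. The difference was 2.18 (SE 0.88) on 6 arrays and 3.18 (SE 0.19, limma adjusted p 0.000454), or 9.05-fold, without the number 2 arrays. Tppp3, a tubulin polymerization-promoting protein made by ciliated and by other cells, read 8.25, 7.76 and 8.40 in AFO fat, against 8.15, 7.69 and 7.95 in control fat. Its genotypes overlapped, with a difference of 0.21 (SE 0.21) on 6 arrays and 0.27 (SE 0.17, limma adjusted p 0.999) without the number 2 arrays.

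The 250 bases before the start are shown for 3 members, because Foxj1 and Rfx factors act on such regions. These members had the largest differences without the number 2 arrays among those with a promoter in the RefSeq table (GRCm38.p6). Any part of these factors in the cilia gene differences was not tested. The regions lie at chr3:27896369-27896618, minus strand, for Tmem212, at chr9:44240427-44240676, plus strand, for Ccdc153, and at chr12:105705732-105705981, plus strand, for Ak7. Capitals mark a forkhead match (TGTTTAC on either strand), and a sequence without capitals held none of the motifs searched. Only this forkhead form was searched, so its absence does not show that a promoter lacks forkhead sites.
Tmem212: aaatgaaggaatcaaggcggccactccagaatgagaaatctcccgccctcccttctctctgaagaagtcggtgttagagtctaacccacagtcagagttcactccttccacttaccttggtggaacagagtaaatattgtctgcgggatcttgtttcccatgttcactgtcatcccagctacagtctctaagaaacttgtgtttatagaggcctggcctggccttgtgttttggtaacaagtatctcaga
Ccdc153: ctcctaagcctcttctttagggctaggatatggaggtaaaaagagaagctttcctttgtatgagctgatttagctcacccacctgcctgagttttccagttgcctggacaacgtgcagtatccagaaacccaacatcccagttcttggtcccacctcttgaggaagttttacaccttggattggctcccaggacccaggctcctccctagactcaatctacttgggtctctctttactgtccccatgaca
Ak7: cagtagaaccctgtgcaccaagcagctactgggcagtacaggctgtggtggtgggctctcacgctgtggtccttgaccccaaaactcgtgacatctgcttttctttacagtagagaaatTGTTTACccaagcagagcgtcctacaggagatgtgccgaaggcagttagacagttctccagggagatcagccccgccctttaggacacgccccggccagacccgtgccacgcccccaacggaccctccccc

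Foxj1 is the forkhead factor that switches on motile cilia genes. It read 7.17, 4.02 and 5.42 in AFO arrays 1, 2 and 3, against 4.57, 4.39 and 4.10 in control arrays 1, 2 and 3. AFO 1 stood far above and AFO 3 moderately above the controls, and AFO 2 lay below them. Foxj1 averaged 5.54 ± 1.57 in AFO fat and 4.35 ± 0.24 in control fat (SD over 3 arrays each), a difference of 1.18 (SE 0.72, 95% interval -0.53 to 2.89, limma adjusted p 1). Without the number 2 arrays it was 1.95 (SE 0.48, limma adjusted p 0.205), and it passed only when array number was added as a block (SE 0.26, limma adjusted p 0.000402). Both standard errors without the number 2 arrays rest mainly on variance borrowed from all genes, and the Foxj1 differences for numbers 1 and 3 were 2.59 and 1.31. Rfx3, a winged-helix factor of ciliated cells, read 5.84, 5.61 and 6.01 in AFO fat, against 5.46, 5.43 and 5.55 in control fat. Its groups did not overlap, yet the difference of 0.34 (SE 0.15) had a limma adjusted p of 1. A second Rfx3 probe set differed by -0.05, and the mean of both gave 0.14. Rfx2, a related factor of cilia and sperm formation, read 5.79, 5.13 and 5.87 in AFO fat, against 5.69, 5.06 and 4.92 in control fat, and the genotypes overlapped. Its difference was 0.37 (SE 0.28), and 3 other Rfx2 probe sets lay between -0.15 and 0.18.

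**Figure D4:**
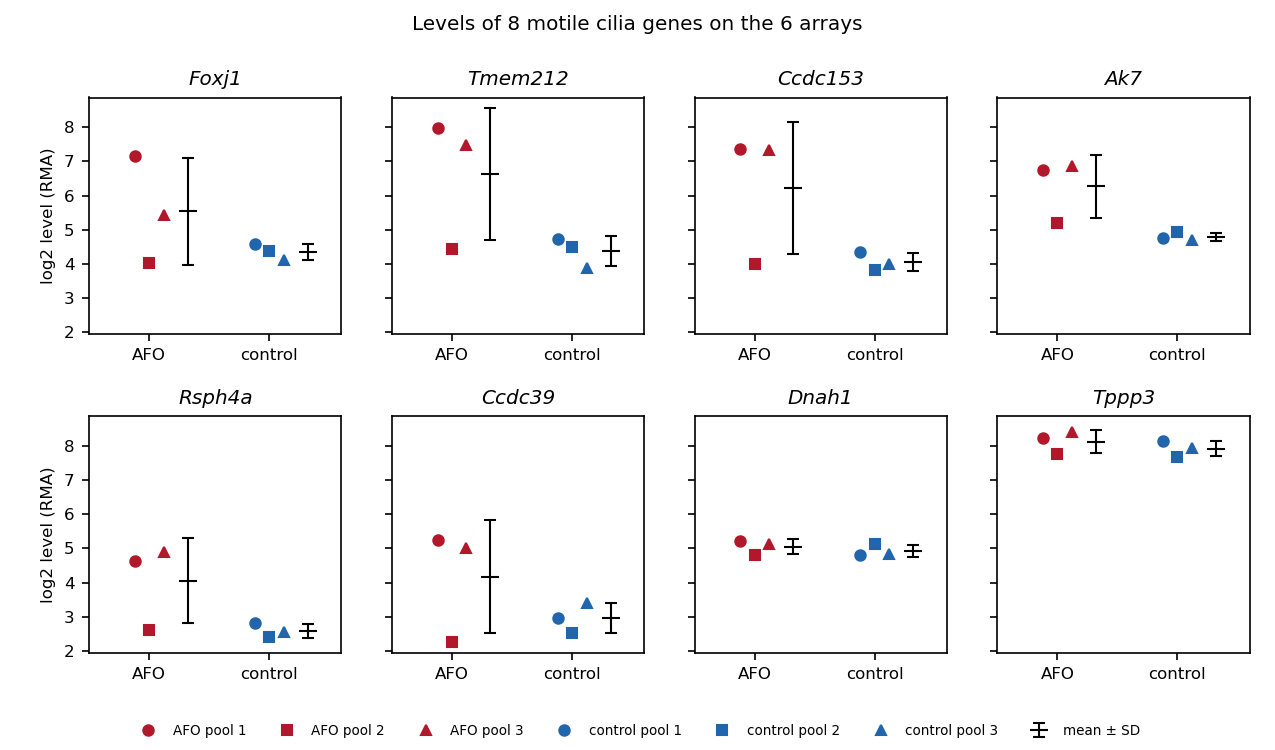
Each panel plots 1 gene's log2 level on the 6 arrays, AFO in red on the left and control in blue on the right, with marker shapes for array number and black bars for mean ± SD (n = 3). Foxj1, Tmem212, Ccdc153, Ak7, Rsph4a and Ccdc39 show AFO 1 and AFO 3 above all controls with AFO 2 apart from them, and Dnah1 and Tppp3 show overlapping groups.

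Dynein arm genes had a median difference of 0.35 over 7 genes on 6 arrays and 0.57 without the number 2 arrays. None of the 7 was called without the number 2 arrays, and Dnah2 and Dnah5 were called when array number was added as a block. Dnah5, the heavy chain of the outer arm most often mutated in human primary ciliary dyskinesia, read 5.23, 4.64 and 5.33 in AFO fat, against 4.50, 4.58 and 4.23 in control fat. Its groups did not overlap, and the difference was 0.63 (SE 0.22, limma adjusted p 1). Dnah11, another outer arm heavy chain, read 6.20, 5.93 and 6.39 in AFO fat, against 5.73, 5.91 and 5.82 in control fat, a difference of 0.35 (SE 0.16) with AFO 2 just above control 2. Dnah9, the third such chain listed, read 4.41, 4.85 and 5.22 in AFO fat, against 4.39, 4.96 and 4.17 in control fat, and its genotypes overlapped with a difference of 0.32 (SE 0.28). Dnah2, an inner arm heavy chain, read 4.67, 3.78 and 4.10 in AFO fat, against 3.43, 3.91 and 3.48 in control fat. Control 2 lay above AFO 2, so the groups overlapped, with a difference of 0.58 (SE 0.25). The inner arm heavy chain Dnah1 read 5.22, 4.80 and 5.12 in AFO fat, against 4.81, 5.13 and 4.84 in control fat, the smallest difference among the members (0.12, SE 0.17). Dnali1, an inner arm light chain, read 5.0, 4.56 and 5.63 in AFO fat, against 4.47, 4.54 and 4.58 in control fat, and Zmynd10, an arm assembly factor, read 5.20, 4.53 and 5.04 in AFO fat, against 4.60, 4.61 and 4.49 in control fat. In both, AFO 1 and AFO 3 stood above the controls and AFO 2 did not, with differences of 0.53 (SE 0.26) and 0.35 (SE 0.19). A second Dnali1 probe set with a lower mean had a difference of 0.95, and a second Dnah2 probe set one of -0.13.

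Both outer arm intermediate chains listed under older symbols showed smaller values. Dnaic1, now Dnai1, read 5.24, 5.28 and 5.20 in AFO fat, against 5.06, 5.46 and 4.87 in control fat, a difference of 0.11 (SE 0.18, 95% interval -0.31 to 0.53). Dnaic2, now Dnai2, read 4.67, 4.83 and 4.79 in AFO fat, against 4.67, 4.79 and 4.70 in control fat, a difference of 0.04 (SE 0.12, 95% interval -0.24 to 0.32). In both genes the genotypes overlapped, and AFO 2 held the highest AFO value.

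Radial spoke and central pair genes held 4 of the 9 calls made without the number 2 arrays. Rsph4a, a radial spoke head protein, read 4.64, 2.61 and 4.89 in AFO fat, against 2.80, 2.41 and 2.54 in control fat. AFO 1 and AFO 3 stood above every control, and AFO 2 within the control range. Its difference was 1.46 (SE 0.57, limma adjusted p 1) on 6 arrays and 2.09 (SE 0.18, limma adjusted p 0.00148) without the number 2 arrays. Ak7, an adenylate kinase of the axoneme, read 6.74, 5.20 and 6.87 in AFO fat, against 4.76, 4.92 and 4.69 in control fat. All 3 AFO values lay above all controls, and here AFO 2 was higher than control 2 by 0.28. The difference was 1.48 (SE 0.43, limma adjusted p 1) on 6 arrays and 2.08 (SE 0.17, limma adjusted p 0.00136) without the number 2 arrays.

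Spag16, a central pair protein, read 6.24, 5.17 and 6.16 in AFO fat, against 4.84, 5.06 and 4.58 in control fat, again without overlap. Its difference was 1.03 (SE 0.31) on 6 arrays and 1.50 (SE 0.18, limma adjusted p 0.00849) without the number 2 arrays, and its 3 other probe sets lay between -0.06 and -0.01 on 6 arrays, so that the mean of its 4 probe sets differed by 0.23. Rsph1, another spoke head protein, read 6.43, 5.13 and 6.36 in AFO fat, against 5.38, 5.20 and 5.31 in control fat. AFO 2 was the lowest of all 6, and without the number 2 arrays the difference was 1.05 (SE 0.17, limma adjusted p 0.0324). Hydin, a central pair protein whose loss causes hydrocephalus in mice, read 6.88, 6.04 and 6.41 in AFO fat, against 5.78, 6.05 and 5.50 in control fat. Control 2 and AFO 2 nearly coincided, so the groups overlapped. Its difference was 0.67 (SE 0.25) on 6 arrays and 1.01 (SE 0.21, limma adjusted p 0.113) without the number 2 arrays, and a second probe set differed by -0.16. Rsph9, a spoke head protein, read 6.41, 5.22 and 5.76 in AFO fat, against 5.91, 5.36 and 5.62 in control fat, and AFO 3 lay within the control range. The central pair genes Spag6, Spag17 and Spef2 differed by 0.19 (SE 0.09), 0.27 (SE 0.12) and 0.42 (SE 0.18) on 6 arrays. Spag17 departed from the common pattern, with 3.04, 3.39 and 3.43 in AFO fat, against 3.00, 3.01 and 3.04 in control fat, so that AFO 2 was high and AFO 1 was not. A second Spag17 probe set differed by 0.01 on 6 arrays. Other Spef2 probe sets differed by -0.13 and 0.12 on 6 arrays, and the mean of its probe sets differed by 0.14. None of Rsph9, Spag6, Spag17 and Spef2 was called in any of these fits.

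The docking ruler, which spaces the arms and spokes along the axoneme, and the dynein regulatory complex gave 3 of the 9 calls. Ccdc39, a ruler protein, read 5.25, 2.26 and 5.01 in AFO fat, against 2.96, 2.51 and 3.41 in control fat. AFO 2 was the lowest array and AFO 1 and AFO 3 the highest. The difference was 1.22 (SE 0.77) on 6 arrays and 1.95 (SE 0.20, limma adjusted p 0.00392) without the number 2 arrays, and the 2 other Ccdc39 probe sets differed by 0.07 and -0.07 on 6 arrays. Its partner Ccdc40 read 6.13, 4.84 and 5.81 in AFO fat, against 5.12, 5.26 and 4.86 in control fat, with a difference of 0.98 (SE 0.20, limma adjusted p 0.0867) without the number 2 arrays. Drc1, a base plate protein of the regulatory complex, read 5.46, 4.66 and 5.62 in AFO fat, against 4.15, 4.73 and 4.43 in control fat. Ccdc113, a coiled-coil protein of cilia, read 3.91, 2.19 and 3.38 in AFO fat, against 2.45, 2.10 and 2.38 in control fat. In Drc1 and Ccdc113 AFO 2 lay among the controls, and without the number 2 arrays the differences were 1.25 (SE 0.19, limma adjusted p 0.0228) and 1.23 (SE 0.19, limma adjusted p 0.0295).

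Tektins, filaments inside the microtubule doublets, and other doublet proteins had no call without the number 2 arrays, and Tekt1, Cfap52 and Cfap126 were called when the block was added. Tekt1 read 5.67, 4.79 and 5.62 in AFO fat, against 4.69, 4.59 and 4.81 in control fat, a difference of 0.67 (SE 0.25) on 6 arrays and 0.90 (SE 0.17, limma adjusted p 0.0680) without the number 2 arrays. Tekt2 read 5.58, 3.64 and 5.13 in AFO fat, against 4.98, 3.81 and 4.55 in control fat. Both number 2 arrays were low for Tekt2, and between arrays of numbers 1 and 3 AFO was higher by 0.61 and 0.58. Tekt4 read 5.21, 3.80 and 4.05 in AFO fat, against 3.85, 4.05 and 3.91 in control fat, so AFO 1 alone stood high. Cfap52, a doublet protein, read 5.64, 3.45 and 4.58 in AFO fat, against 3.74, 3.55 and 3.75 in control fat, a difference of 1.37 (SE 0.31, limma adjusted p 0.143) without the number 2 arrays. Its second probe set was also higher there, by 1.10. Cfap126 read 7.76, 6.17 and 7.28 in AFO fat, against 6.45, 6.42 and 6.56 in control fat, with AFO 2 the lowest array, a difference of 0.59 (SE 0.38) on 6 arrays and 1.01 (SE 0.20, limma adjusted p 0.0821) without the number 2 arrays. Cfap43, a protein of cilia and sperm tails, read 4.50, 4.47 and 5.05 in AFO fat, against 4.51, 4.77 and 4.31 in control fat, so AFO 3 alone stood high. It differed by 0.15 (SE 0.21) on 6 arrays by the probe set used, and its 2 other probe sets, of lower mean, differed by 0.91 and -0.003.

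X-boxes, the sites that Rfx factors bind, were searched as GTTNCC and GGNAAC parted by 1 to 3 bases on both strands of the 250 bases before each start. Of the 32 members, 28 had a promoter in the table, and 0 of 28 held this motif, against 0.654% of all 32851 promoters. The form searched is strict and rare, so its absence does not show that the members lack sites for Rfx factors. A looser form, GTTGC and GCAAC parted by 2 to 4 bases, was chosen after the sequences were seen and stood in 3 members, against 0.353% of all promoters. The single site GTTGCCA, which in Hydin overlaps the looser form, stood in Drc1, Hydin and Tekt1, 3 members (3.66% of all promoters), and the forkhead motif in Ak7 and Cfap43, 2 members (3.17% of all promoters). The 3 looser matches are in capitals, shown because each joins both arms of the site, and they lie at chr4:126325689-126325741, minus strand, for Tekt2, at chr8:110266932-110266976, plus strand, for Hydin, and at chr17:25471530-25471589, plus strand, for Tekt4. They describe letters only.
Tekt2: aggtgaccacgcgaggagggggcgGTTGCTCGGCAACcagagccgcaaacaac
Hydin: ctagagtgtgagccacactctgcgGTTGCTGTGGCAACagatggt
Tekt4: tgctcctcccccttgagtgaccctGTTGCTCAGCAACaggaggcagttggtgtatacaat

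Other genes of the axoneme were also higher on AFO 1 and AFO 3, with a mean level over the list of 5.35, 4.80 and 5.31 in AFO fat, against 4.85, 4.84 and 4.75 in control fat. Of 58 listed genes of dynein arms, spokes and doublets outside the members, 37 were read. On 6 arrays 32 had a difference above 0, beside 47.3% of all genes. Without the number 2 arrays 5 were called higher and 0 lower, beside 0.874% and 0.0165% of all genes. By smallest unadjusted p on 6 arrays the list led with Mns1 at 0.67 (SE 0.19), Cfap54 at 1.06 (SE 0.31), Efhb at 0.33 (SE 0.12) and Cfap206 at 0.64 (SE 0.24), each with a limma adjusted p of 1. The 5 calls without the number 2 arrays were Dynlrb2, Enkur, Cfap54, Nme5 and Cfap69, of which all but Cfap54 were chosen after their values were seen. Dynlrb2, a dynein light chain of ciliated cells, read 7.47, 3.25 and 6.71 in AFO fat, against 3.59, 3.27 and 3.31 in control fat. AFO 2 was the lowest of the 6, and the difference without the number 2 arrays was 3.64 (SE 0.26, limma adjusted p 0.000716).

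Of 22 other genes of ciliated epithelia that were read, 18 had a difference above 0 on 6 arrays, beside 47.3% of all genes. Without the number 2 arrays 3 were called higher, beside 0.874% of all genes. By the rule, Ccdc146 at 0.40 (SE 0.13), Mlf1 at 2.48 (SE 0.83), Stoml3 at 0.75 (SE 0.25) and Cdhr4 at 1.34 (SE 0.50) led this list. Mlf1, a gene also active in blood cells, read 7.52, 9.09 and 6.55 in AFO fat, against 5.15, 6.62 and 3.98 in control fat. The AFO array was higher at each of the 3 numbers, number 2 included, and Mlf1 was called with array number as a block (limma adjusted p 0.0152), a fit that called 2 of 18193 genes. Dynein arm assembly factors had 11 of 13 above 0, with a median of 0.15 and no call without the number 2 arrays, led by Dnaaf4 at 0.50 (SE 0.18), Ccdc103 at 0.24 (SE 0.11), Pih1d2 at 0.51 (SE 0.29) and Spag1 at 0.23 (SE 0.15).

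Regulators of multiciliation gave a median of 0.08 with 10 of 16 above 0, beside 47.3% of all genes. The list was led by Myb at 1.51 (SE 0.54), Plk4 at 0.37 (SE 0.19), Rfx1 at 0.23 (SE 0.14) and E2f4 at 0.16 (SE 0.16). Myb, a factor of multiciliated cells and of blood progenitors, read 6.64, 6.84 and 6.59 in AFO fat, against 4.61, 6.54 and 4.40 in control fat. It was high on both number 2 arrays as well, and it was the 1 regulator called without them (2.11, SE 0.18, limma adjusted p 0.00136), beside 0.874% of all genes called higher. The Myb values come from a probe set of the _x_at kind, which can also bind other transcripts. Genes of intraflagellar transport and the BBSome, which serve primary as well as motile cilia, had 22 of 35 above 0, a median of 0.05 and no call without the number 2 arrays. The 4 named by the rule were Cluap1 at 0.19 (SE 0.16), Ift80 at 0.22 (SE 0.21), Bbs10 at 0.20 (SE 0.22) and Ift22 at 0.17 (SE 0.20). The summed linear level of all 35 was 5246, 3411 and 5137 in AFO arrays 1, 2 and 3, against 4846, 3646 and 4961 in control arrays 1, 2 and 3, so both number 2 arrays were low.

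Markers listed for efferent duct and absorptive epithelium were high on the arrays where the cilia genes were high. The list is not specific to the efferent ducts. Of 16 listed markers 15 were read, and all 15 had a difference above 0 on 6 arrays, beside 47.3% of all genes. Without the number 2 arrays 9 were called higher, beside 0.874% of all genes. The summed linear level of the list was 2992, 509 and 2296 in AFO arrays 1, 2 and 3, against 800, 1021 and 655 in control arrays 1, 2 and 3. For the motile cilia genes the sums were 2385, 1046 and 2099 in AFO fat, against 1151, 1069 and 1042 in control fat. The keratins Krt8 and Krt18 are also made by mesothelium. Krt8 read 9.23, 4.63 and 8.93 in AFO fat, against 7.78, 7.53 and 6.98 in control fat. Krt18 read 8.55, 5.73 and 8.71 in AFO fat, against 7.06, 8.02 and 7.06 in control fat. For both keratins AFO 1 and AFO 3 lay above every control array and AFO 2 below every one. Lrp2, the endocytic receptor megalin, chosen after its values were seen, read 8.55, 4.75 and 7.86 in AFO fat, against 5.82, 4.89 and 6.13 in control fat. The list's mean level was 6.80, 4.87 and 6.55 in AFO fat, against 5.18, 5.53 and 4.93 in control fat, and its part in the cilia gene differences was not tested.

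Markers of the epididymal duct and of sperm gave other patterns. Of 14 epididymal duct markers read, 13 had a difference above 0 on 6 arrays, beside 47.3% of all genes, and none was called without the number 2 arrays. The list had a mean level of 6.21 in AFO 1, against 4.18 to 4.37 on the other 5 arrays, so AFO 3, where cilia genes were high, stood near the controls. Lcn9, an epididymal lipocalin, read 8.65, 6.03 and 5.78 in AFO fat, against 5.65, 6.03 and 5.85 in control fat, and Sult1e1, a sulfotransferase, read 8.64, 5.25 and 9.13 in AFO fat, against 8.69, 5.06 and 8.93 in control fat. Germ cell and sperm markers had summed linear levels of 562, 545 and 810 in AFO fat, against 1004, 571 and 721 in control fat, highest in control 1. Tnp1, a sperm chromatin protein chosen after its values were seen, read 3.35, 3.33 and 5.26 in AFO fat, against 6.01, 3.19 and 3.11 in control fat. The summed linear level of the motile cilia genes in control 1 was 1151. Prm1 and Sycp3, named by the rule, differed by -0.05 (SE 0.43) and -0.43 (SE 0.45). The part of either list in the cilia gene differences was not tested.

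**Figure D5:**
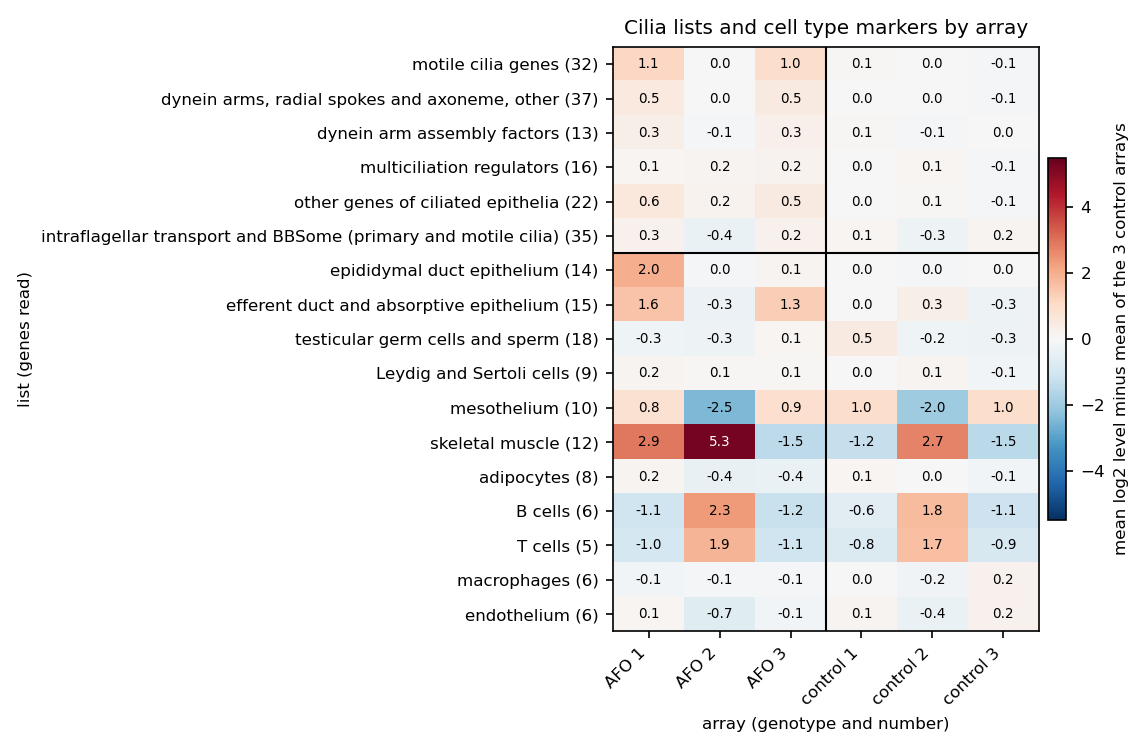
Rows are lists of genes with the number read, columns are arrays, and numbers and colour give the list's mean log2 level minus its mean over the 3 control arrays. Motile cilia genes and markers of efferent duct and absorptive epithelium are high in AFO 1 and AFO 3, and epididymal duct markers in AFO 1. Skeletal muscle markers are high in AFO 1, AFO 2 and control 2, and B cell and T cell markers in AFO 2 and control 2.

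The means of the other marker lists did not single out AFO 1 and AFO 3. Skeletal muscle markers had mean levels of 9.04, 11.41 and 4.68 in AFO fat, against 4.89, 8.87 and 4.65 in control fat. Mean levels of Leydig and Sertoli cell markers ranged from 4.96 to 5.07 in AFO fat, against 4.77 to 5.04 in control fat. Of these 9 genes, limma called 1 as higher without the number 2 arrays, beside 0.874% of all genes. The signal at the 3' end minus that at the 5' end of the Actb control probe sets, a measure of RNA integrity, was 0.82, 0.73 and 1.33 in AFO arrays 1, 2 and 3, against 0.84, 0.95 and 0.87 in control arrays 1, 2 and 3. AFO 3 was highest on this measure and AFO 1 was not apart from the controls.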

How the data were processed

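The deposited values are log2 levels per probe set, made by the authors with RMA in Affymetrix Expression Console 1.4, per the submitters' processing notes. RMA gives arrays nearly equal distributions and compresses dim signals. Of 45101 probe sets, 34945 carried 1 gene symbol. The build behind the probe sets is not given in the sources used here.

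Genotypes were compared over 18193 genes with limma (version 3.58.1 in R 4.3.3, empirical Bayes with trend), without a filter on low values. P-values rest on the spread between these pools and on variance that limma borrows from all genes. The borrowed part is the larger in the fits without the number 2 arrays. Deviations from genotype means correlated at 0.524, 0.766 and 0.519 between equal array numbers, all above the 0.1 that the rule used asks for pairing. No label states what equal numbers have in common. AFO 3 with control 1 (0.407) and AFO 1 with control 3 (0.359) passed 0.1 too, so the rule does not settle how numbers 1 and 3 pair. Summed linear levels add 2 to the power of each log2 level. Promoters are RefSeq's. All members are named, then from each other cilia list the 4 genes of smallest unadjusted p and from each marker list some of the 2 of highest mean, unless stated. Members, lists, tests and alternatives were chosen with earlier results of these data known.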

Additional observations from a re-analysis of the deposited data

How the results depend on the processing

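On 6 arrays no member and no gene was called under either filter, either renormalisation, the other probe set choices, the other variance models or array weights. With array number as a replicate block, 2 genes, 0 members and 1 gene of the other cilia lists were called. Without both number 2 arrays the counts were 162 genes, 9 members and 9 genes of the other lists, and with the replicate block as well 327, 17 and 13. Leaving out 1 array at a time gave 0 to 78 genes, 0 to 6 members and 0 to 4 genes of the other lists, the highest each time without AFO 2. Direction held in all 32 members under every alternative that kept all arrays or left out the number 2 arrays, apart from members lost to a filter. Leaving out 1 array at a time reversed 4 members. Rsph9 ranged from -0.14 (without AFO 1) to 0.45, Tekt2 from -0.061 (without AFO 1) to 0.91, Tekt4 from -0.017 (without AFO 1) to 0.69, and Cfap43 from -0.042 (without AFO 3) to 0.27. The looser X-box stood in 3 members and the stricter form in 0. The number of arrays and the dim levels of many members limit all of these values.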
